A study of Mus musculus with 15 samples.

Results

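High-affinity and low-affinity germinal centre B cells of the mouse spleen were compared over both zones of the germinal centre, and the genes described are those whose high minus low difference had the same sign in the light zone and in the dark zone. Of 19938 genes measured, 11101 (55.7%) met that rule: 5931 lay higher and 5170 lower in high-affinity cells of both zones, and 8837 had opposite signs. No filter on low values was used, so every gene with the same sign is counted. Many of these signs rest on small values. In 7203 of the 11101 genes the smaller of both zone differences was under 0.1 on the log2 scale, and in 117 both exceeded 0.5, 56 of them higher and 61 lower. The count of 11101 was 10015 (50.2%) without 1 high-affinity array of the dark zone, Dzhi replicate 1.

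Every array measured SwHEL B cells, which carry a knocked-in antigen receptor for hen egg lysozyme; they came from a CD45.1 strain and were transferred into C57BL/6J recipients carrying CD45.2. All groups shared the immunization, with HEL3x, a mutant lysozyme, coupled to red blood cells of sheep, and all were sorted from spleen on day 10 as donor-derived switched cells with low CD38 (CD45.1+, CD45.2-, IgG1+); the labels give female mice of the SWHEL strain. Light zone cells were taken as high for CD86 and low for CXCR4 and dark zone cells as the reverse, and each zone was divided by affinity, which gave 4 groups: Dzhi (4 arrays), Dzlo (4), Lzhi (3) and Lzlo (4). How affinity was measured in the sort, and whether arrays came from separate mice, is not given in the labels, so the p-values rest on the spread among these arrays, part of which may be technical. The sample descriptions carry experiment codes, read here as experiments A to D, and 7 pairs of high and low arrays share a code and a zone, 4 in the dark zone and 3 in the light zone. Experiment D has no Lzhi array. Dzhi replicate 4 is its only high-affinity array, so a fit without that array also removes the affinity difference of experiment D. Values are RMA values, which are microarray probe intensities after background correction and quantile normalization, on the log2 scale. Array medians ran from 5.57 to 5.74, and the number of arrays limits the precision.

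Germinal centre B cells mutate their antigen receptor genes and divide in the dark zone, then move to the light zone, where they take up antigen, present it on MHC class II molecules and compete for signals from follicular helper T cells. Cells that bind antigen better tend to collect more of it and to receive more help, after which they re-enter the cell cycle and return to the dark zone, or leave as plasma cells or memory B cells. Markers of the labelled cell type were measured in every group: the mean over 7 of the 10 germinal centre B cell markers ran from 9.85 to 10.30 over the arrays.

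A pair of low-affinity arrays of experiment D stood apart by the markers of other cells. The mean of 10 neutrophil markers was 9.29 in Lzlo replicate 3 and 8.07 in Dzlo replicate 3, against 5.15 to 6.63 in the Lzhi arrays and 5.27 to 6.81 in the Dzhi arrays. T cell, myeloid, NK cell and erythroid markers were also highest in Lzlo replicate 3 among the Lzlo arrays and in Dzlo replicate 3 among the Dzlo arrays. Over both zones 9 of 10 neutrophil markers lay below 0 in the high minus low difference, with a median of -0.35, and without experiment D 3 of 10 did, with a median of 0.12. For that reason the values below are also given without experiment D, which leaves 12 arrays, wherever that changes a call or moves a value by more than 1.5 times; the part of these other cells in the results was not tested beyond that.

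The fit asked which genes differ by affinity when zone and experiment are taken into account, with 1 common affinity effect for all 15 arrays. All errors given for such an effect are its standard errors. In limma, 2 genes (0.01% of those tested) passed an adjusted p of 0.05, both lower in high-affinity cells: Fcer2a, which encodes the low-affinity IgE receptor CD23, and Il4ra, which encodes the interleukin-4 receptor alpha chain. No gene passed on the higher side. At an unadjusted p under 0.05, 559 genes (2.8%) lay higher and 677 (3.4%) lower, and 1235 of these 1236 had the same sign in both zones, as the contrast largely fixes. In all 7 pairs, 168 genes (0.843%) were higher and 179 (0.898%) were lower in the high-affinity array. Within single zones limma called 0 genes, with 942 at an unadjusted p under 0.05 in the light zone and 566 in the dark zone. The test of whether the affinity difference depended on zone also called 0, with 380 at an unadjusted p under 0.05. These unadjusted counts depended on single arrays. Without Lzhi replicate 4 the light zone count was 553 and the dark zone count 687. The dark zone count was 920 without experiment D, 946 without Dzhi replicate 1, 1044 without Dzhi replicate 4 and 320 without the experiment code. In the same fits the light zone count was 1233, 1110, 1376 and 797. The light zone had more in every fit made except that without Lzhi replicate 4, so the order of the zones rested on that array. The count for the zone difference was 600 without experiment D, 812 without Dzhi replicate 1, 793 without Dzhi replicate 4 and 581 without Lzhi replicate 1. Over all probe sets limma called 2 in the dark zone.

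Fcer2a is a surface marker of mature B cells, and CD23 is known to be induced by interleukin-4 through the transcription factor STAT6. Its values were 7.98, 8.40, 8.44 and 8.26 in Dzhi arrays and 9.22, 9.23, 8.90 and 9.70 in Dzlo arrays. In the light zone they were 10.19, 10.02 and 10.17 in Lzhi arrays and 10.91, 10.81, 10.35 and 11.06 in Lzlo arrays. Every high-affinity array was below every low-affinity array of its zone, and all 7 pairs went the same way, by -0.64 to -1.25. On the log2 scale Fcer2a fell by 0.88 ± 0.10, or 1.84-fold (adjusted p = 0.0342 in limma). The difference was -0.99 ± 0.14 in the dark zone and -0.74 ± 0.15 in the light zone, and these did not differ detectably (unadjusted p of the zone difference = 0.250 in limma). Without experiment D the value was -0.95 ± 0.11 (adjusted p = 0.0467). In sorted bulk samples, less RNA per cell and fewer cells with that RNA cannot be told apart.

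Il4ra values followed the experiments as well as affinity. In the dark zone they were 8.70, 8.64, 9.65 and 9.41 in Dzhi arrays and 9.35, 9.31, 10.72 and 10.30 in Dzlo arrays. In the light zone they were 9.41, 9.05 and 9.86 in Lzhi arrays and 9.94, 9.94, 11.16 and 10.58 in Lzlo arrays. The groups overlapped in the dark zone and not in the light zone, and within pairs of 1 experiment the high-affinity array was lower in 7 of 7, by -0.53 to -1.31. The widest of these was the pair of experiment D, whose Dzlo and Lzlo arrays were the highest of their groups. Il4ra fell by 0.79 ± 0.10, a 1.73-fold difference (adjusted p = 0.0387), with -0.82 ± 0.14 in the dark zone and -0.76 ± 0.16 in the light zone. Without experiment D the affinity effect of Il4ra was -0.68 and did not pass in limma (adjusted p = 0.0691). When only Dzhi replicate 4 of that experiment was left out, the effect was also -0.68 and passed in limma (adjusted p = 0.0269).

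Both calls lay close to the threshold. With 1 array left out at a time, the count of called genes was 0 without Dzhi replicate 2, any of the 4 Dzlo arrays, Lzhi replicate 2 or 4, or Lzlo replicate 1 or 2. It was 1 without Dzhi replicate 1, Lzhi replicate 1 or Lzlo replicate 3, and 3 without Dzhi replicate 3, Dzhi replicate 4 or Lzlo replicate 4. Over those 15 fits the Fcer2a value ran from -0.95 to -0.81 and that of Il4ra from -0.84 to -0.68. Without the experiment code in the model limma called 0 genes, with 859 at an unadjusted p under 0.05, 318 higher and 541 lower.

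The promoter windows of these genes are shown because they are the pair that passed. They run from 250 bases before to 50 after an annotated start, 5′ to 3′, and come from RefSeq on build GRCm38.p6. Capitals mark the letters TTCNNNNGAA, the spacing to which STAT6 binds, on either strand; this motif was chosen after the values were seen. It is found in 6.2% of the 19177 windows of the genes tested. Among genes with the same sign and an unadjusted p under 0.01, it is in 6.1% of 181 windows of the lower ones. For the higher ones the share is 12.1% of 116 windows. Fcer2a has 3 windows in that table, of which 1 holds a match and is printed, at chr8:3690812-3691111 on the minus strand. The 1 window of Il4ra, at chr7:125552021-125552320 on the plus strand, holds none, which says only that these letters are not in this window.
Fcer2a: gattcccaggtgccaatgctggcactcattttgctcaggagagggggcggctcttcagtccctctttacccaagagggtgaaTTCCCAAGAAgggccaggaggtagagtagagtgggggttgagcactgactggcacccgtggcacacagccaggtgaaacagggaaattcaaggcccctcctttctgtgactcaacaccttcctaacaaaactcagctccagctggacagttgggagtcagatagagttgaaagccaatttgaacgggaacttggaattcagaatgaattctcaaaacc
Il4ra: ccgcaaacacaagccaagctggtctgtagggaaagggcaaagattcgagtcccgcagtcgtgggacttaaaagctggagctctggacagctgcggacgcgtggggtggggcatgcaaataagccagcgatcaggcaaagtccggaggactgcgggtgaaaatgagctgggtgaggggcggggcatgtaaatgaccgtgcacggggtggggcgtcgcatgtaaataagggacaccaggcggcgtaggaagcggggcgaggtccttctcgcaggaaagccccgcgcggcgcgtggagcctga

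Beyond these, genes are given as values that did not pass over all genes. Several of those with the next lowest p-values among the genes named encode surface and adhesion molecules. Cd2, an adhesion receptor that binds CD48, had values of 10.27, 10.54, 10.56 and 9.87 in Dzhi arrays, 11.09, 10.80, 10.66 and 11.12 in Dzlo arrays, 9.27, 9.80 and 9.33 in Lzhi arrays and 10.43, 10.43, 10.30 and 10.87 in Lzlo arrays. High-affinity arrays lay below all low-affinity arrays of their zone, and the effect was -0.85 ± 0.13 (adjusted p = 0.128). Its difference was -1.14 in the light zone and -0.61 in the dark zone (unadjusted p of the zone difference = 0.0353, adjusted p = 1.0 in limma). Cd72, an inhibitory co-receptor of B cells, had values of 7.60, 8.53, 8.36 and 7.87 in Dzhi arrays, 8.98, 8.61, 8.53 and 9.33 in Dzlo arrays, 9.74, 9.62 and 9.06 in Lzhi arrays and 10.23, 9.98, 10.10 and 10.56 in Lzlo arrays. The groups did not overlap in either zone, although Dzhi replicate 2 and Dzlo replicate 3 both round to 8.53, and the effect was -0.79 ± 0.17 (adjusted p = 0.340).

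Icosl encodes the ligand by which B cells engage ICOS on helper T cells. Its values were 7.23, 7.24, 7.49 and 7.26 in Dzhi arrays, 7.79, 7.58, 8.38 and 8.26 in Dzlo arrays, 8.18, 7.40 and 7.77 in Lzhi arrays and 8.51, 8.04, 8.89 and 9.25 in Lzlo arrays. The dark zone groups did not overlap and the light zone groups did, through Lzhi replicate 1 and Lzlo replicate 2. The effect was -0.76 ± 0.13 (adjusted p = 0.279). Pecam1, an adhesion molecule with inhibitory motifs, had values of 7.30, 7.73, 8.26 and 7.80 in Dzhi arrays, 8.61, 8.24, 8.25 and 8.33 in Dzlo arrays, 8.34, 8.34 and 8.49 in Lzhi arrays and 9.10, 9.18, 8.71 and 9.52 in Lzlo arrays. Here the light zone groups were apart and Dzhi replicate 3 reached into the Dzlo range, and the effect was -0.68 ± 0.13 (adjusted p = 0.288).

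**Figure D1:**
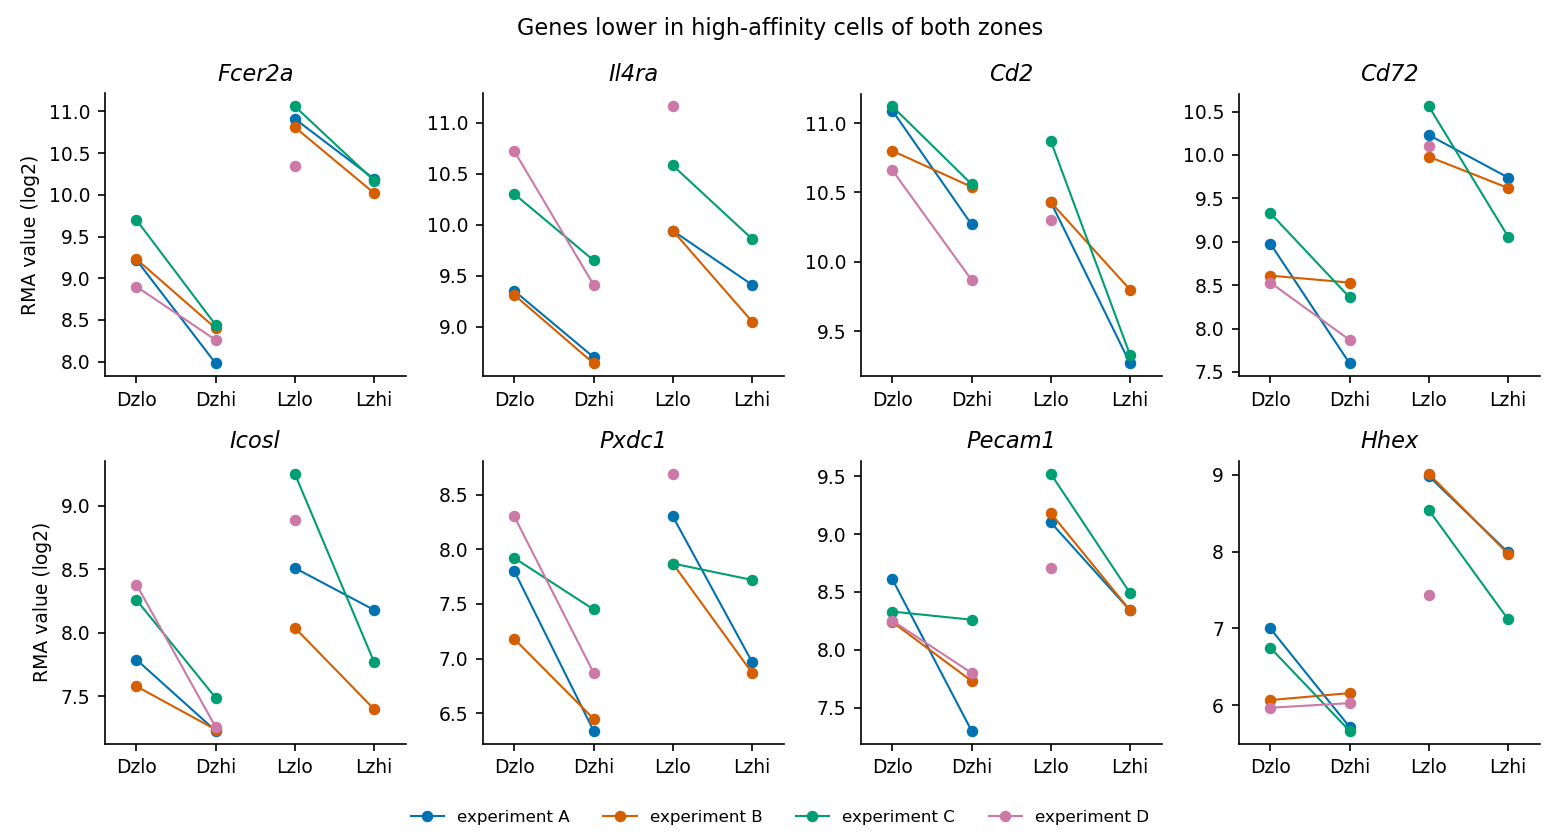
RMA values (log2, vertical axis, a separate scale for each gene) of 8 genes that lay lower in high-affinity cells, by group (horizontal axis). Each point is 1 array, colours mark experiments A to D, and lines join the low-affinity and high-affinity arrays of 1 experiment and zone. The lines of Fcer2a and Il4ra, the genes that passed in limma, all slope down, while those of Hhex are nearly flat in the dark zone of experiments B and D.

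Among the largest lower values were several more genes with 1 direction in all 7 pairs. Pxdc1 had values of 6.34, 6.45, 7.45 and 6.87 in Dzhi arrays, 7.80, 7.18, 8.30 and 7.92 in Dzlo arrays, 6.97, 6.87 and 7.72 in Lzhi arrays and 8.30, 7.87, 8.69 and 7.87 in Lzlo arrays. Its pair differences ran from -0.16 to -1.46, and its effect was -0.96 ± 0.15 (adjusted p = 0.160). Slc14a1, a urea transporter gene, had -0.97 ± 0.26, with the low-affinity arrays of the light zone spread from 6.48 to 8.44. Sirpa, whose protein binds CD47 and is typical of myeloid cells, had -0.90 ± 0.21, and its highest values were in Lzlo replicate 3 at 9.01 and Dzlo replicate 3 at 8.26, the arrays with high neutrophil markers. Without experiment D the Sirpa value was -0.73. The ubiquitin ligase adaptor gene Fbxl20 had -0.86 ± 0.19 and did not overlap between groups in either zone. Pdcd4, an inhibitor of translation, had -0.85 ± 0.18, the guanine nucleotide exchange factor gene Arhgef3 -0.84 ± 0.15, Gapt -0.82 ± 0.15, the tetraspanin gene Tspan32 -0.81 ± 0.19 and Fam102a -0.79 ± 0.15. These had adjusted p-values of 0.282 to 0.487 in limma.

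On the higher side the lowest p was that of Rexo2, which encodes an exonuclease that degrades short RNA in mitochondria. Rexo2 values were 10.71, 10.80, 10.94 and 10.04 in Dzhi arrays, 10.41, 9.74, 8.87 and 10.29 in Dzlo arrays, 10.33, 10.31 and 10.91 in Lzhi arrays and 9.91, 9.79, 8.91 and 10.35 in Lzlo arrays. The groups overlapped in both zones, and within experiments the high-affinity array was higher in 7 of 7 pairs, by 0.29 to 1.17. The effect was 0.67 ± 0.11, a 1.59-fold difference (adjusted p = 0.190). Galnt7, which encodes an enzyme that adds sugars to proteins, had values of 8.19, 8.14, 7.82 and 8.06 in Dzhi arrays, 8.18, 7.18, 6.47 and 6.44 in Dzlo arrays, 8.60, 8.08 and 8.36 in Lzhi arrays and 7.97, 7.57, 7.31 and 7.53 in Lzlo arrays. Its effect was 0.83 ± 0.17 (adjusted p = 0.340), and the pair of experiment A in the dark zone differed by 0.01.

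Among the other large higher values, Cmss1 had 0.71 ± 0.17, Mtrr, which keeps methionine synthase active, 0.69 ± 0.18, and Eef1e1, a component of the aminoacyl-tRNA synthetase complex, 0.63 ± 0.13. Tfrc, the transferrin receptor, whose surface level is high on dividing cells, had values of 8.20, 8.46, 8.45 and 8.43 in Dzhi arrays, 8.30, 7.95, 6.65 and 8.11 in Dzlo arrays, 9.32, 9.01 and 9.97 in Lzhi arrays and 8.86, 8.45, 7.46 and 8.78 in Lzlo arrays. The light zone groups of Tfrc did not overlap, 1 of 4 dark zone pairs went the other way, and the effect was 0.72 ± 0.19 (adjusted p = 0.461). Tfrc belongs to a list of 32 measured genes of amino acid transport, one-carbon metabolism and related uptake, which did not lie on 1 side: the median was 0.10, and 5 genes had an unadjusted p under 0.05 on the higher side and 5 on the lower side. On the lower side Aldh18a1, of proline synthesis, had -0.53 ± 0.20, Slc3a2, an amino acid transporter chain, -0.41 ± 0.13 and Chac1, which degrades glutathione, -0.32 ± 0.13. The Chac1 difference was -0.03 ± 0.16 in the light zone and -0.55 ± 0.15 in the dark zone. Without experiment D the counts were 9 and 2, and the affinity effect of Chac1 was -0.20. They ran from 2 to 8 and from 2 to 5 when 1 array was left out, and at least 1 of them moved by more than 1.5 times for every array left out except Dzhi replicate 1, Lzhi replicate 4 and Lzlo replicate 4.

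**Figure D2:**
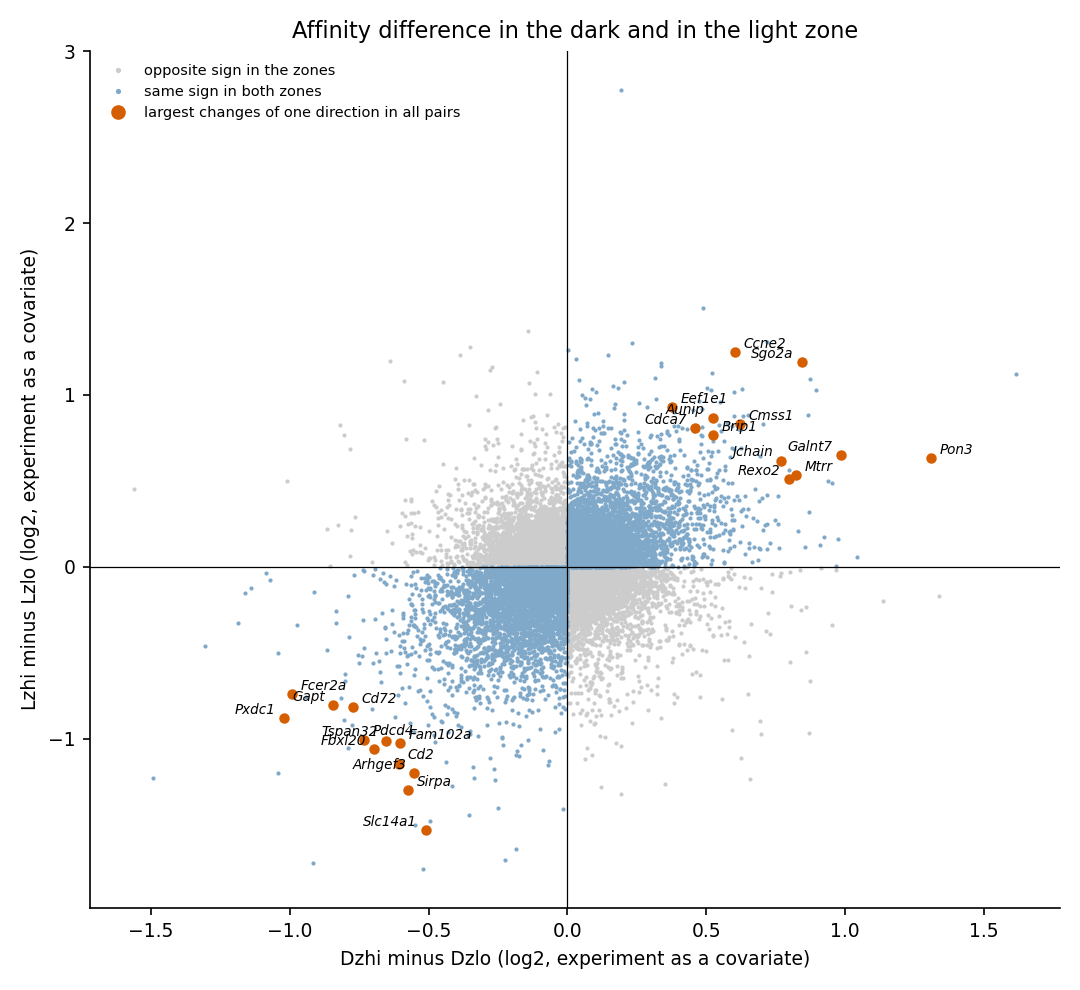
The affinity difference of all 19938 genes in the dark zone (horizontal axis, Dzhi minus Dzlo, log2) against that in the light zone (vertical axis, Lzhi minus Lzlo, log2), both from the fit with experiment as a covariate. Blue points are the 11101 genes with the same sign in both zones, grey points the 8837 others, and orange points the 12 largest named effects in each direction, which sit away from the dense centre near 0.

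The gene groups describe how members of a pathway were placed. Each is given by its count and median beside those of all genes, for which 10530 of 19938 lay above 0 with a median of 0.01. The share of genes that reaches an unadjusted p under 0.05 by the same fit is 2.8% on the higher side and 3.4% on the lower side, and no list held a gene called over all genes other than Fcer2a and Il4ra. Without experiment D, 11631 of the 19938 genes lay above 0 with a median of 0.03, and 737 lay higher and 798 lower at that p.

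Genes of DNA replication lay higher in high-affinity cells of both zones. The list for G1/S and replication had 62 measured genes, of which 57 were above 0, and its median was 0.27; of these genes, 31 reached an unadjusted p under 0.05 on the higher side and 0 on the lower side. The median was 0.28 in the light zone and 0.28 in the dark zone, and it was above 0 in 7 of 7 pairs, from 0.02 to 0.51. The lowest pair was that of experiment C in the light zone, where the median of all genes was higher, at 0.10. Without experiment D it was 0.26, with 33 genes at that p, and without the experiment code 18 genes had that p. None of these genes passed over all genes in limma.

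Ccne2 encodes cyclin E2, which drives entry into S phase. Its values were 8.77, 8.70, 7.55 and 8.38 in Dzhi arrays, 8.25, 8.25, 7.13 and 7.36 in Dzlo arrays, 8.96, 8.89 and 8.86 in Lzhi arrays and 8.42, 8.06, 6.77 and 6.75 in Lzlo arrays. All 3 Lzhi arrays lay above the 4 Lzlo arrays, and the dark zone groups overlapped. The effect was 0.89 ± 0.20 (adjusted p = 0.340), and the widest pair, that of experiment C in the light zone, differed by 2.10. Rfc4, a subunit of the clamp loader of DNA replication, had values of 9.01, 9.49, 8.72 and 8.12 in Dzhi arrays, 8.45, 8.51, 7.12 and 8.86 in Dzlo arrays, 8.99, 9.23 and 9.97 in Lzhi arrays and 8.39, 8.57, 7.04 and 8.72 in Lzlo arrays. It lay higher in 6 of 7 pairs, the exception being experiment C in the dark zone at -0.14, and the effect was 0.73 ± 0.15 (adjusted p = 0.340, or 0.0312 without Dzhi replicate 3). Rrm2, the regulatory subunit of ribonucleotide reductase, had a smaller and more even effect of 0.34 ± 0.08, higher in 7 of 7 pairs. Cdca7 had 0.62 ± 0.13 and Brip1, a helicase of DNA repair, 0.63 ± 0.19.

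Genes of mitosis lay higher too, more in the light zone than in the dark zone by their medians. Of 78 measured genes of G2/M and mitosis, 74 lay above 0 with a median of 0.32, 25 with an unadjusted p under 0.05 on the higher side and 0 on the lower side. The median was 0.50 in the light zone and 0.15 in the dark zone; no test of that difference between lists was run, and the test per gene called 0 genes. By pair it was 0.54, 0.44 and 0.26 in the light zone of experiments A, B and C, and -0.13, 0.35, -0.02 and 0.17 in the dark zone of experiments A to D. Without experiment D it was 0.25, with 72 genes above 0. The count of 25 was 9 without the experiment code, 13 without Lzhi replicate 1 or Lzhi replicate 2 and 16 without Dzlo replicate 2.

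Sgo2a, which protects the cohesion of centromeres in meiosis and mitosis, had the largest value of the list. It was 7.92, 8.67, 7.11 and 8.42 in Dzhi arrays, 7.77, 8.35, 6.77 and 5.85 in Dzlo arrays, 8.39, 8.69 and 6.97 in Lzhi arrays and 6.75, 7.76, 5.69 and 6.64 in Lzlo arrays. Groups overlapped in both zones, while all 7 pairs went up, by 0.15 to 1.64. The effect was 1.00 ± 0.24 (adjusted p = 0.400), or 0.77 without experiment D. Ccna2, which encodes cyclin A2, had 0.37 ± 0.10, higher in 7 of 7 pairs, and Cdca2 0.48 ± 0.12. The proliferation marker Mki67 had 0.42 ± 0.17, with 0.71 in the light zone and 0.17 in the dark zone.

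**Figure D3:**
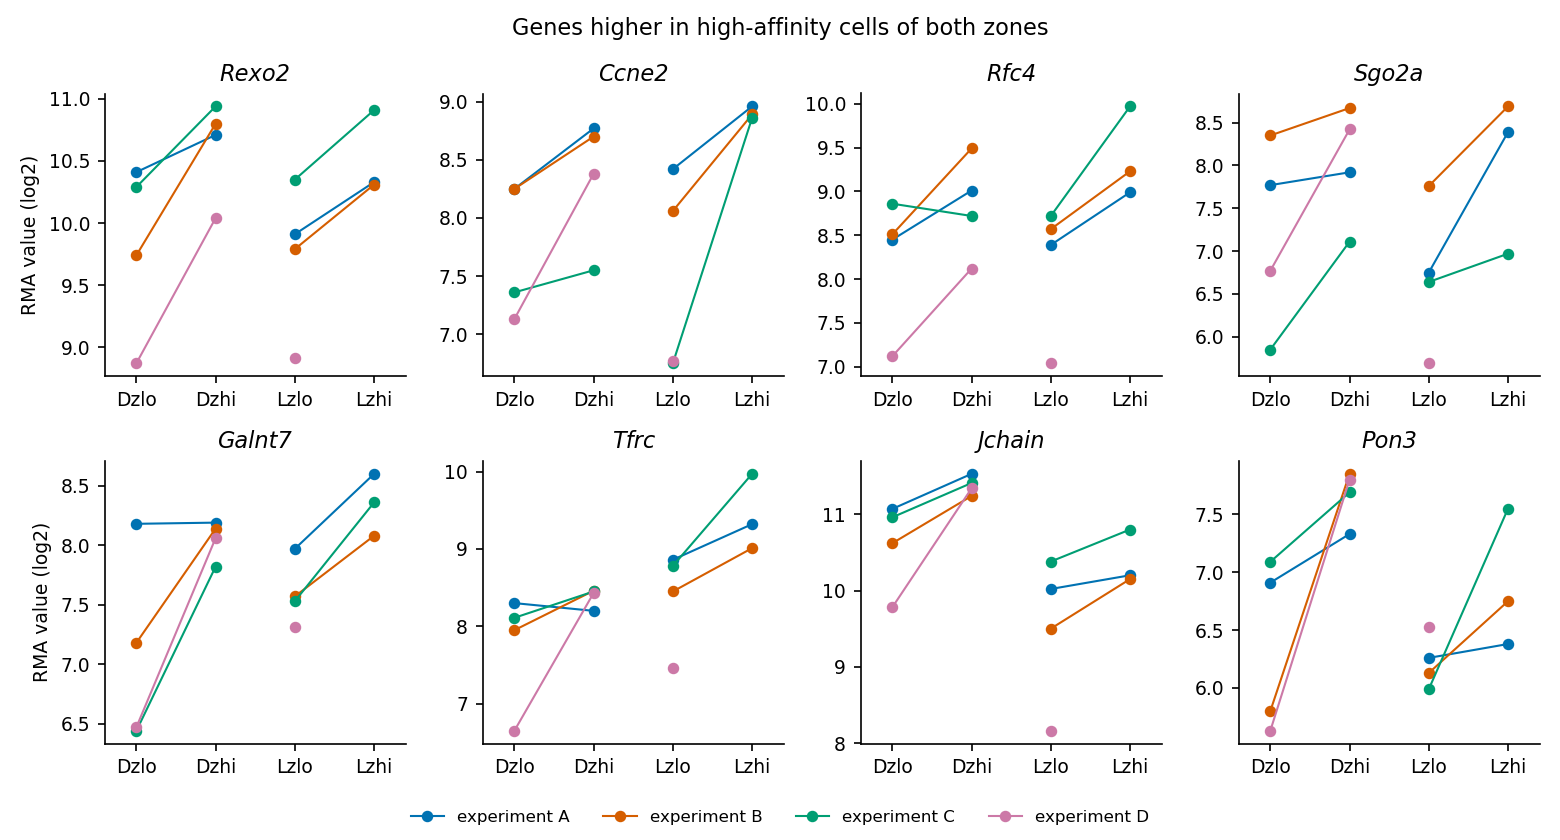
RMA values (log2, vertical axis, a separate scale for each gene) of 8 genes that lay higher in high-affinity cells, by group (horizontal axis), drawn with 1 point per array, colours for experiments A to D and lines joining arrays of 1 experiment and zone. Most lines slope up; Rfc4 in experiment C and Tfrc in experiment A of the dark zone slope down, and none of these genes passed over all genes.

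Genes of ribosome production and other MYC targets formed the third group on the higher side. MYC is a transcription factor that T cell help switches on for a short time in light zone cells. Of 65 measured genes 56 lay above 0 with a median of 0.21, 14 with an unadjusted p under 0.05 on the higher side and 0 on the lower side. Pair medians ranged from -0.07 to 0.43, and 4 of 7 were above 0. Without the experiment code 6 genes had that p. Nop56, a core protein of the particles that methylate ribosomal RNA, had 0.44 ± 0.11, Nolc1, a nucleolar chaperone of such particles, 0.37 ± 0.11, and Gar1 0.27 ± 0.09. Myc itself had 0.25 ± 0.22, with overlapping groups in both zones (adjusted p = 0.984).

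A promoter of each of these groups is shown because the members of a group lay on 1 side together. The gene is the higher member with the lowest p whose window holds the motif, so it was chosen after the values were seen. Capitals mark motifs on either strand, which for Cks1b are the CHR letters TTTGAA or TTCGAA and the box CCAAT, 2 and 4 matches, for Mcm6 the E2F letters TTTGGCGC or TTTCCCGC, 2 matches, and for Hspd1 the E-box CACGTG, 1 match in 1 of its 2 windows. The windows lie on the minus strand of GRCm38.p6, at chr3:89418242-89418541 for Cks1b, chr1:128359656-128359955 for Mcm6 and chr1:55088194-55088493 for Hspd1.
Cks1b: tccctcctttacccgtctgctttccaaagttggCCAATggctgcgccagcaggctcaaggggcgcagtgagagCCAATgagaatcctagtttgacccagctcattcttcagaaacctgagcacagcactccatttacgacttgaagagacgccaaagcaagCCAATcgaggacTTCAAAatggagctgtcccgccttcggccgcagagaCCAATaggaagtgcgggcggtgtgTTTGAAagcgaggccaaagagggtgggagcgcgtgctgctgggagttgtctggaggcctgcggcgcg
Mcm6: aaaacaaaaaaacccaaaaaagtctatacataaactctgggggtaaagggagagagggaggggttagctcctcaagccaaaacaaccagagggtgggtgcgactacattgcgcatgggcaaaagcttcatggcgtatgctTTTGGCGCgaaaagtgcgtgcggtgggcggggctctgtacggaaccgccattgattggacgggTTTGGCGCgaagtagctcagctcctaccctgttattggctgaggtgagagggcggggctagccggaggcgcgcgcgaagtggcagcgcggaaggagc
Hspd1: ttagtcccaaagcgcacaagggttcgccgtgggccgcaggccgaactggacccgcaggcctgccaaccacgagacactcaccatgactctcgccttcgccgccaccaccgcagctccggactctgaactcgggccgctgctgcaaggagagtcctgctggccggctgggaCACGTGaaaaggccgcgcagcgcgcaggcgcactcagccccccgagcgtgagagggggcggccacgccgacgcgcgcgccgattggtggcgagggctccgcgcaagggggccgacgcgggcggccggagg

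Cks1b, a small subunit that binds cyclin-dependent kinases, had an effect of 0.35 ± 0.12, Mcm6, a part of the replicative helicase, 0.29 ± 0.07, and Hspd1, the mitochondrial chaperonin, 0.38 ± 0.15. In the windows of the 78 mitosis genes, of which 66 have a window, the CHR letters were found in 68.5% of 73 windows, against 16.5% of the windows of all genes tested. The CCAAT box was found in 74.0% of them, against 37.4%. The E2F letters were found in 26.3% of 57 windows of replication genes, against 2.2%, and the E-box in 28.4% of 67 windows of MYC target genes, against 8.2%. These shares describe the lists, which hold known targets of such factors, and not the response to affinity. Among the 122 higher genes with the same sign and an unadjusted p under 0.01, the CHR letters were in 12.9% of 116 windows and the E2F letters in 9.5%.

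Genes that keep the identity of mature B cells lay lower. Of 38 measured B cell identity genes, 37 lay below 0 with a median of -0.23, 16 with an unadjusted p under 0.05 on the lower side and 0 on the higher side. The median was below 0 in 7 of 7 pairs, from -0.34 to -0.14, and -0.21 without experiment D. Fcer2a is 1 of these genes and passed over all genes in limma. Bach2, a repressor that holds back plasma cell differentiation, had values of 7.83, 8.33, 8.53 and 9.0 in Dzhi arrays, 8.83, 8.69, 8.98 and 8.96 in Dzlo arrays, 8.24, 7.98 and 6.93 in Lzhi arrays and 8.84, 8.52, 8.68 and 8.40 in Lzlo arrays. Its light zone groups did not overlap, Dzhi replicate 4 was the highest dark zone array, and the effect was -0.60 ± 0.19 (adjusted p = 0.652). Fcrl1, a receptor-like activator on B cells, had -0.40 ± 0.10 and was lower in 7 of 7 pairs. Bcl6, the master regulator of germinal centre B cells, had -0.28 ± 0.09, also lower in 7 of 7 pairs, and Foxp1 -0.39 ± 0.16.

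B cell receptor signalling components were placed in the same way, with 35 of 39 below 0 and a median of -0.18, 12 of them with an unadjusted p under 0.05 on the lower side. Prkcb, the protein kinase that links the receptor to NF-kappaB, had -0.37 ± 0.08, lower in 7 of 7 pairs. The Src family kinase gene Blk had -0.36 ± 0.12 and Cd79a, a signalling chain of the receptor, -0.32 ± 0.12. The list's median was -0.29 in the light zone and -0.13 in the dark zone, and it was above 0 in 1 of 7 pairs. The count of 12 was 6 without the experiment code, 5 without Lzhi replicate 4 and 7 without Lzhi replicate 2 or Lzlo replicate 4.

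Among 20 genes of MHC class II presentation 19 were below 0, and the median was -0.27, 10 with an unadjusted p under 0.05 on the lower side. The invariant chain gene Cd74 had -0.28 ± 0.09, H2-Eb1, a class II beta chain, -0.29 ± 0.10, and Cd83, whose protein stabilises class II at the surface, -0.35 ± 0.12. This group leaned on experiment D: without it the median was -0.16, with 7 genes at that p, and H2-Eb1 had -0.18. The count of 10 was 6 without Dzhi replicate 4 and 5 without the experiment code. In the dark zone pair of experiment D the median was -0.66, against 0.03 and -0.01 in those of experiments B and C.

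T cell contact and costimulation genes had a median of -0.17, with 29 of 35 below 0, 12 at an unadjusted p under 0.05 on the lower side and 1 on the higher side. Their median was below 0 in 7 of 7 pairs, from -0.40 to -0.01, and -0.22 without experiment D. Il4ra is the member that passed in limma. Besides Icosl, the adhesion ligand gene Icam2 had -0.41 ± 0.08, lower in 7 of 7 pairs. The exception on the higher side was Tnfsf9, which encodes 4-1BB ligand. Its values were 5.61, 5.97, 5.16 and 6.29 in Dzhi arrays, 5.69, 5.33, 5.74 and 5.35 in Dzlo arrays, 7.87, 7.31 and 8.24 in Lzhi arrays and 7.05, 6.22, 6.48 and 6.57 in Lzlo arrays. All Lzhi arrays lay above the Lzlo arrays while the dark zone groups overlapped, and the effect over both zones was 0.71 ± 0.23 (adjusted p = 0.652). The Tnfsf9 difference was 1.30 ± 0.27 in the light zone and 0.23 ± 0.24 in the dark zone, and 2 of 7 pairs were lower, both in the dark zone. The unadjusted p of that zone difference was 0.0130 in limma, and it did not pass over all genes.

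**Figure D4:**
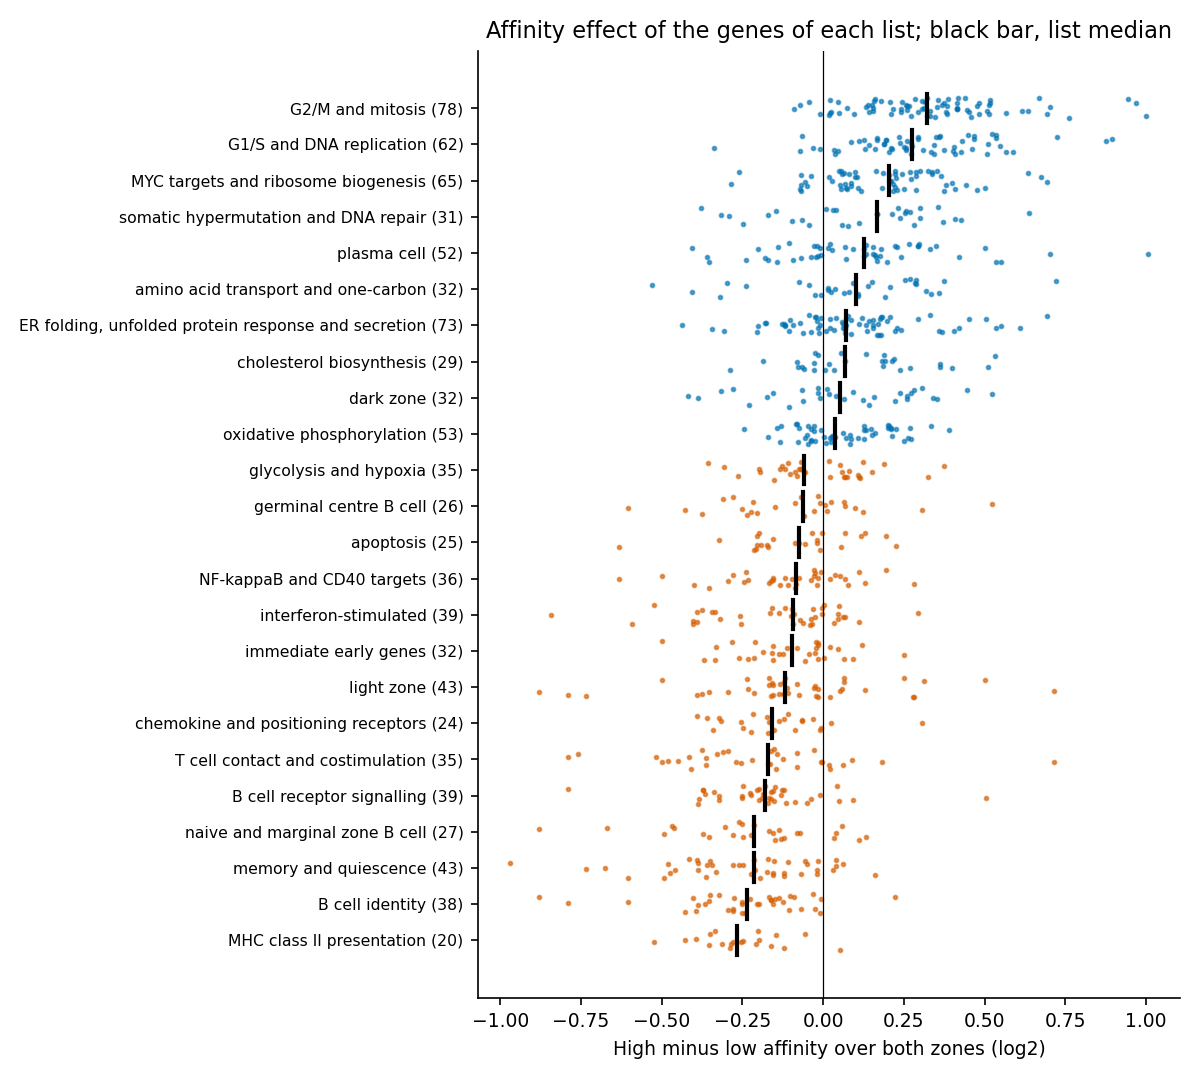
Affinity effect over both zones (high minus low, log2, horizontal axis) of each measured gene of 24 gene lists, with the number of genes in brackets and a black bar at the list's median; lists with a median above 0 are blue and those below 0 orange. Cell cycle and MYC target genes sit mostly right of 0, and B cell identity and MHC class II genes mostly left of it.

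Genes linked to memory B cells and to naive or marginal zone B cells were also mostly lower. Of 43 memory and quiescence genes 38 were below 0, and the median was -0.21, 10 with an unadjusted p under 0.05 on the lower side, and the list's median was -0.39 in the light zone and -0.11 in the dark zone. Hhex, a transcription factor that favours memory over plasma cell fate, had values of 5.72, 6.16, 5.67 and 6.03 in Dzhi arrays, 7.0, 6.07, 5.97 and 6.75 in Dzlo arrays, 7.99, 7.97 and 7.12 in Lzhi arrays and 8.98, 9.01, 7.44 and 8.54 in Lzlo arrays. Hhex groups overlapped in both zones, 5 of 7 pairs were lower, and the effect was -0.73 ± 0.22 (adjusted p = 0.612). Tle3, a corepressor that partners with such factors, had -0.47 ± 0.12, lower in 7 of 7 pairs.

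Ccr6, the chemokine receptor often used to mark memory precursors, was lower in the light zone, and its dark zone difference was smaller than its error. Its values were 4.89, 4.96, 5.01 and 5.06 in Dzhi arrays, 4.74, 5.34, 5.05 and 5.11 in Dzlo arrays, 5.01, 5.13 and 5.28 in Lzhi arrays and 5.64, 6.01, 6.07 and 5.99 in Lzlo arrays. The light zone groups were apart and the dark zone groups overlapped. Dark zone pairs differed by 0.16, -0.39, -0.10 and 0.01 in experiments A to D. All dark zone values of Ccr6 were below the lowest array median of 5.57, so they are dim. The difference was -0.77 ± 0.12 in the light zone and -0.08 ± 0.11 in the dark zone, and the test of that difference gave an unadjusted p of 0.00114 and an adjusted p of 1.0 in limma. Of 27 naive and marginal zone genes 22 were below 0, and the median was -0.21, 6 with an unadjusted p under 0.05 on the lower side, or 3 without Dzlo replicate 1. Notch2, the receptor required for marginal zone B cells, had -0.67 ± 0.15, lower in 7 of 7 pairs, and Satb1 -0.46 ± 0.16.

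Plasma cell genes were split. Of 52 measured genes 33 lay above 0 with a median of 0.13, 10 with an unadjusted p under 0.05 on the higher side and 2 on the lower side. The median was 0.22 in the dark zone and -0.06 in the light zone, so the list as a whole did not keep 1 sign over both zones. It was 0.06 without Dzlo replicate 2 or Dzlo replicate 3, 0.07 without Dzhi replicate 2, 0.08 without Dzhi replicate 1 and 0.08 without the experiment code. The count of 10 was 6 without Dzhi replicate 2. In the whole list 19 genes lay below 0, among them Mzb1 at -0.18 and Txndc5 at -0.09. The 7 genes of that list taken as plasma cell markers all lay above 0 in both zones, with a median of 0.30, and 5 of them had an unadjusted p under 0.05. Some of these values were near 0. Slamf7 had 0.03 and was lower in 5 of 7 pairs, and the light zone difference was 0.05 for Sdc1 and 0.06 for Prdm1. Without experiment D, 6 of 7 markers lay above 0 and 2 reached that p. The count of 5 was also 2 without Dzhi replicate 1, Dzhi replicate 2, Dzlo replicate 4 or Lzlo replicate 1, and 3 without Dzlo replicate 1, Lzhi replicate 4, Lzlo replicate 2 or Lzlo replicate 3. Their mean level was 7.11 to 7.29 in Dzhi arrays against 6.73 to 6.97 in Dzlo arrays, and 6.87 to 7.19 in Lzhi arrays against 6.51 to 7.03 in Lzlo arrays, so the dark zone groups did not overlap and the light zone groups did.

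Jchain encodes the chain that joins secreted IgA and IgM molecules. Its values were 11.53, 11.24, 11.41 and 11.34 in Dzhi arrays, 11.07, 10.62, 9.78 and 10.96 in Dzlo arrays, 10.20, 10.15 and 10.80 in Lzhi arrays and 10.02, 9.50, 8.16 and 10.38 in Lzlo arrays. The lowest values of both zones were in the low-affinity arrays of experiment D, all 7 pairs went up, and the effect was 0.70 ± 0.19 (adjusted p = 0.483), or 0.46 without experiment D. Pon3, a paraoxonase gene, had the largest higher effect among the named genes, at 1.01 ± 0.25 (adjusted p = 0.408). Pon3 values were 7.33, 7.85, 7.69 and 7.80 in Dzhi arrays, 6.91, 5.80, 5.63 and 7.09 in Dzlo arrays, 6.38, 6.75 and 7.55 in Lzhi arrays and 6.26, 6.13, 6.53 and 5.99 in Lzlo arrays. Its pairs ran from 0.12 to 2.17, with the dark zone groups apart and the light zone groups overlapping.

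Regulators of the plasma cell fate had smaller values. Irf4, which is needed for plasma cells and for early germinal centre entry, had 0.50 ± 0.17, higher in 6 of 7 pairs. Prdm1, which encodes Blimp-1, had 5.04, 4.90, 4.36 and 4.99 in Dzhi arrays, 4.16, 4.41, 4.42 and 4.34 in Dzlo arrays, 4.84, 4.20 and 4.55 in Lzhi arrays and 4.47, 4.55, 4.48 and 4.48 in Lzlo arrays. Only Dzhi replicates 1, 2 and 4 and Lzhi replicate 1 stood clear of the others, and the effect was 0.30 ± 0.13 (adjusted p = 0.766). All values of Prdm1 were below the lowest array median of 5.57, so they are dim. Xbp1, the regulator of secretion, had 0.13 ± 0.13 with overlapping groups (adjusted p = 0.997). The affinity effect of Xbp1 was 0.22 without experiment D and 0.01 without Dzlo replicate 4.

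Genes of protein folding and secretion in the endoplasmic reticulum did not lie on 1 side either. Of 73 measured genes 48 lay above 0 with a median of 0.07, 9 with an unadjusted p under 0.05 on the higher side and 3 on the lower side. The coat protein gene Sec24d had 0.37 ± 0.08, with every Dzhi array (5.45 to 5.53) above every Dzlo array (5.0 to 5.14). All values of Sec24d were below the lowest array median of 5.57, so they are dim. The chaperone gene Hsp90b1 had 0.55 ± 0.17, or 0.34 without experiment D, whose pair differed by 1.90. The 3 genes on the lower side were Ddit3, which encodes the stress factor CHOP, at -0.44 ± 0.11, Syvn1, a ubiquitin ligase of the degradation of misfolded proteins, at -0.34 ± 0.09, and Atf4, a transcription factor that activates Ddit3, at -0.20 ± 0.09. Ddit3 and Syvn1 were lower in 7 of 7 pairs.

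Cxcr4 and Cd86 encode the markers by which the zones were sorted, so only their affinity values are given: Cxcr4 had -0.17 ± 0.12 and Cd86 -0.38 ± 0.14 (adjusted p = 0.952 and 0.723). Cd86 was lower in 7 of 7 pairs, by -0.64 ± 0.16 in the dark zone and -0.05 ± 0.18 in the light zone.

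**Figure D5:**
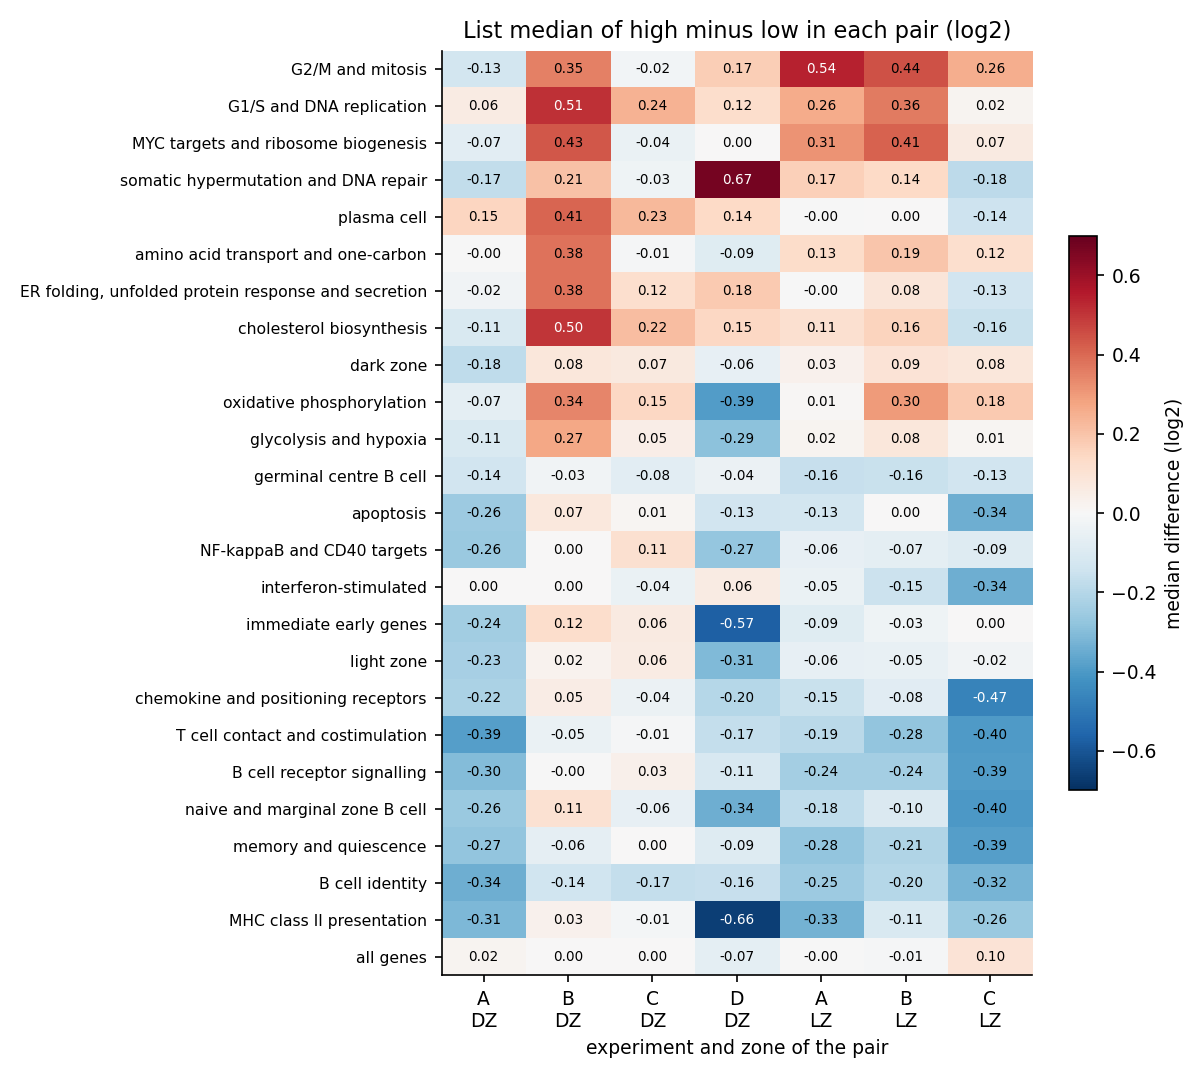
Median of high minus low (log2) over the genes of each of 24 lists, with all genes in the bottom line, in each of the 7 pairs of arrays that share an experiment (A to D) and a zone (DZ, dark; LZ, light); red is above 0 and blue below. G1/S genes are above 0 and B cell identity, T cell contact and germinal centre B cell genes below 0 in all 7 pairs, while the other lists are not on 1 side in every pair, with the pair of experiment D at -0.66 for MHC class II presentation. All genes range from -0.07 (D, DZ) to 0.10 (C, LZ). G1/S genes at 0.02 lie below all genes in C, LZ, and germinal centre B cell genes at -0.04 lie above all genes in D, DZ.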

How the data were processed

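Total RNA of the sorted cells was amplified and measured on 15 whole-transcript microarrays, per the labels' protocols. The authors deposited log2 values made with RMA, per the submitters' processing notes, which name build mm8; the software version is not given in the sources used here. Differences of dim probe sets come out too small in RMA values, and amplification can add spread. Of 28853 probe sets, 21789 had 1 gene in the platform annotation, 1621 several and 5443 none; the brightest probe set per gene gave 19938 genes, with 999 genes having several. Of the probe sets with 1 gene, 21698 matched the reference table by Entrez ID.

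Limma 3.58.1 in R 4.3.3 fitted affinity, zone and experiment code (5 written forms merged to 4) with 9 residual degrees of freedom, with Benjamini-Hochberg adjustment over all 19938 genes and a threshold of 0.05. A fit of 4 group means plus code gave the zone differences and their interaction. Merging the written forms of code B joins dark zone and light zone arrays that may not be 1 experiment. Where arrays shared a code across groups, their deviations from the group means went together (mean correlation 0.288 over 21 pairs, 16 above 0.1; different codes, -0.08 over 63). The highest correlation between a pair of arrays was 0.993, and each array was counted once.

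Named genes were the 12 largest effects in each direction among genes with an unadjusted p under 0.01 and 1 direction in all 7 pairs, leaving out predicted genes, olfactory receptors, small RNAs and segments of antigen receptors. To these were added up to 3 genes per list and direction with an unadjusted p under 0.05, and 13 measured genes out of 16 chosen by name; not all 94 are printed. The genes with the same sign, the gene lists and the named set were chosen with earlier results of these data known, and no list was tested. Promoters came from RefSeq on GRCm38.p6, for 15614 of the genes tested. The steps were tested on simulated data. Alternatives changed the block, the zone term, the centring, the filter, the probe sets, the variance model, the weights, the arrays and the threshold. Matplotlib 3.10.9 drew the figures.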

Additional observations from a re-analysis of the deposited data

Results flagged for a closer look

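Within groups of 4 arrays, 1 array lay far from the other 3 in 13 of 282 combinations of a named gene and a group (4.61%), where chance gives about 1 in 20. Of these, 7 were in the low-affinity arrays of experiment D, which carry high markers of other cells. Lzlo replicate 3 stood at 9.01 for Sirpa, against 7.80 to 7.91 in the other Lzlo arrays, and at 8.81 for the macrophage gene Cd68, against 8.02 to 8.15. The same array was low for the DNA repair genes Xrcc5, at 7.16 against 8.72 to 8.96, and Msh6, at 8.19 against 9.62 to 9.86. Dzlo replicate 3 was high for Nfkbie, an inhibitor of NF-kappaB, at 7.57 against 6.73 to 6.78, and for Cd68, at 8.21 against 7.17 to 7.24. It was low for the cytochrome c gene Cycs, at 10.03 against 11.38 to 11.44. Without experiment D the effects of Xrcc5 and Msh6 were 0.21 and 0.17, against 0.36 and 0.43 with all arrays.

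The other 6 were spread over 6 arrays. Tspan32 stood at 7.51 in Lzlo replicate 2, against 8.22 to 8.33, and Foxp1 at 7.61 in Lzlo replicate 4, against 7.91 to 7.96. In Dzhi arrays, Icosl was 7.49 in replicate 3, against 7.23 to 7.26, and the sterol synthesis gene Msmo1 was 7.79 in replicate 4, against 8.73 to 8.83. Tfrc was 8.20 in Dzhi replicate 1, against 8.43 to 8.46, and Shmt1, of one-carbon metabolism, was 6.97 in Dzhi replicate 2, against 6.38 to 6.47.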

How the results depend on the processing

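The count of 2 called genes was 0 in the model with no replicate block (859 at an unadjusted p under 0.05), 0 with code B kept as written (1098), 0 with code as a random replicate block (1143), and 1 with the title number as the block. It was 0 with 4 group means plus code (1214), 0 with arrays centred on their medians (1160), 0 over all probe sets (1566), 0 with a trended and robust variance (1101), and 13, 3 higher and 10 lower, with array weights. Without dim genes, with the mean of probe sets, without experiment D and at an adjusted p under 0.1 it was 2; without experiment D the genes were Fcer2a and Tsnaxip1. Leaving out 1 array gave 0 to 3. Fcer2a passed in 6 of 15 such fits and 5 of 13 other alternatives, and Il4ra in 3 and 4; among the alternatives other than leaving out 1 array, their effects ran from -0.95 to -0.84 and from -0.89 to -0.68. The count of genes with the same sign ran from 10015 to 11587 when 1 array was left out. All 94 named genes kept their direction in 22 settings. Most of them were picked for a low unadjusted p in these same arrays, so this was largely fixed by their choice. Of 550 list medians 7 changed sign, those of immediate early genes and of glycolysis. These medians were the same without experiment D, without its low-affinity arrays and without Dzhi replicate 4, so sign changes in those settings are not separate. No detection calls are in the table, so dim genes could not be marked.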

Other observations

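Several further groups had medians that depended on experiment D. Over all 19938 genes, 11631 were above 0 without that experiment, with a median of 0.03, and 737 lay higher at an unadjusted p under 0.05. Of 53 oxidative phosphorylation genes 33 were above 0, and the median was 0.04; without experiment D 51 were, the median was 0.12 and 12 genes had an unadjusted p under 0.05. With 1 array left out the median ran from 0.01 without Dzlo replicate 2 to 0.12 without Dzhi replicate 4; it was 0.02 without Dzhi replicate 2 or Lzhi replicate 2, 0.06 without Lzhi replicate 1, 0.07 without Dzlo replicate 3 or Lzlo replicate 3 and 0.08 without Dzlo replicate 1. Cycs, the electron carrier cytochrome c, had 0.39 ± 0.11. Replication-dependent histone genes, whose RNA is made in S phase and mostly lacks a poly(A) tail, were above 0 for 9 of 11, and the median was 0.18; without experiment D 11 were, the median was 0.47 and 9 genes had that p. The histone median also moved to 0.06 without Dzlo replicate 4, 0.09 without Lzhi replicate 4 and 0.32 without Dzlo replicate 3. Their median was -1.55 in the dark zone pair of experiment D and between -0.02 and 0.71 in the other 6 pairs. Cholesterol biosynthesis genes had a median of 0.07, or 0.16 without experiment D and 0.01 without Dzlo replicate 4; it was 0.11 without Dzhi replicate 1 or Lzlo replicate 4, 0.12 without Dzlo replicate 3 and 0.17 without Lzhi replicate 4. In that list Elovl6, a fatty acid elongase gene, had 0.51 ± 0.12 and was higher in 7 of 7 pairs.

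Light zone genes had a median of -0.12, with 31 of 43 below 0, and one of -0.05 without experiment D, while dark zone genes had one of 0.05, or 0.03 without Dzlo replicate 3. Among genes of NF-kappaB and CD40 targets, Nfkbie had -0.50 ± 0.13 and Irf5 -0.40 ± 0.12, and the list's median was -0.09, or -0.06 without experiment D and -0.04 without Lzhi replicate 4. Zfp36, an early response gene whose protein destabilises RNA, had -0.50 ± 0.11 and was lower in 7 of 7 pairs, and the immediate early genes had a median of -0.10, or 0.01 without experiment D and -0.06 without Dzlo replicate 3 or Lzlo replicate 3. Of 39 interferon-stimulated genes 30 were below 0, and the median was -0.09, or -0.05 without Lzlo replicate 3, with Irf7 at -0.52 ± 0.18. Of these genes 20 were lower in both zones, and the list's median was -0.19 in the light zone and -0.01 in the dark zone. Of 24 chemokine and positioning receptor genes 22 lay below 0, with a median of -0.16, or -0.09 without Lzhi replicate 4. Only 12 of them were lower in both zones, and the list's median was -0.29 in the light zone and -0.03 in the dark zone.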
